A study of Mus musculus with 18 samples.

Results

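The miRNAs miR-205-5p (mmu-miR-205-5p in the table) and miR-1247-5p (mmu-miR-1247-5p) are 2 of the 459 mature miRNAs counted in Ago2 pulldowns from mouse colon, and were chosen because both were higher in mice carrying oncogenic K-Ras-G12D. They were found by name in the table of normalized miRNA reads. The contrast that chose them is therefore described here with no test. The peaks of the pulldown mRNA libraries that the deposited annotation assigns to a site of miR-205-5p (28 of 5554 merged peaks) were not used in the choice, and differences in them are tested. However, the authors had called 16 of these peaks in G12D only and 6 in WT only, which in part fixes the direction of a difference. No peak is assigned to miR-1247-5p, which none of the 75 seed families of the annotation names.

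The libraries come from HEAP, a CLIP-seq method in which Ago2, the Argonaute protein that carries miRNAs to their targets, is fused to a Halo tag and pulled down after UV crosslinking. All mice were C57BL/6, 8 to 12 weeks old, and carried Halo-Ago2/+ and Fabp-Cre/+. The control group (WT) had wild-type K-Ras, and the other group (G12D) carried K-Ras-G12D/+ in addition. Distal colon was scraped and crosslinked in 3 rounds of 400 mJ/cm2. Scraping enriches for epithelium without purifying it, and Fabp-Cre is driven by a fatty acid binding protein promoter active in gut epithelium. The labels do not state whether the tagged Ago2 or the K-Ras allele needs Cre, and the tables used here do not show the K-Ras allele. Each genotype had 3 miRNA and 3 pulldown mRNA libraries. Of the 6 libraries labelled input control none is analysed here, and without them a change in a peak and a change in its transcript cannot be told apart. The labels do not say that each library is its own mouse, so p-values measure the spread between these libraries, which may be technical. The miRNA libraries held 337788 to 535932 reads and the pulldown mRNA libraries 54401 to 723937 reads in merged peaks.

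A miRNA bound by Ago2 recognises its targets mainly through the seed, bases 2 to 8 from its 5' end, which pairs with a complementary stretch of the target, most often in a 3' UTR. miR-205 is known as an epithelial miRNA, abundant in stratified epithelia such as skin, and as a repressor, together with the miR-200 family, of the transcription factors Zeb1 and Zeb2 that drive epithelial cells towards a mesenchymal state. Mir1247 lies beside Dio3, the gene of a deiodinase that inactivates thyroid hormone, at the edge of the imprinted Dlk1-Dio3 region, which also holds large miRNA clusters. In cell lines and tumours miR-1247 has been studied as a tumour suppressor, with Sox9, Nrp1 and Map3k9 among the reported targets.

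The mature sequences, from RefSeq (GRCm38.p6), are shown with the seed in capitals because the peak annotation rests on the seed.
miR-205-5p: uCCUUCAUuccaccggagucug
miR-1247-5p: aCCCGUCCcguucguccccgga
Neither seed is shared with another of the 1679 mature mouse miRNAs of that table. The strongest target site of miR-205-5p used here, the 8mer, reads AUGAAGGA, and the 7mer-m8, the complement of the seed alone, reads AUGAAGG. The GC content of miR-1247-5p is 72.7% and that of miR-205-5p 54.5%. The median is 45.8% over the 227 of 254 tested miRNAs with a sequence, and no other of these had as high a GC content as miR-1247-5p.

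Both miRNAs come from the 5' side of their hairpin, printed next with the mature 5p miRNA in capitals to show where it lies.
Mir205: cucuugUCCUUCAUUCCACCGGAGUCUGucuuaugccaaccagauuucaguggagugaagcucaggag
Mir1247: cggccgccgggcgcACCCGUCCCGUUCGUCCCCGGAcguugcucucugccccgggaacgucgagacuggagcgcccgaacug
The Mir205 hairpin lies on the minus strand at chr1:193507463-193507530 within the long noncoding RNA gene Mir205hg. The Mir1247 hairpin lies on the minus strand at chr12:110278048-110278129, overlaps the long noncoding RNA gene Dio3os by 21 bases and stands 1100 bases from Dio3. Ago2 held almost only the 5p arm of Mir205: over the 6 libraries there were 14799 reads of miR-205-5p and 5 of miR-205-3p, so the 5p arm had 99.97% of the reads. The 3p arm had at most 2 reads in any library. miR-1247-3p is not listed in the table, and arms of that hairpin could not be compared.

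miR-205-5p was an abundant Ago2-bound miRNA in both genotypes and stood about 2.25-fold higher in G12D. Its normalized read counts were 1353, 1953 and 1455 in the WT libraries and 4475, 2670 and 3562 in the G12D libraries. All 3 G12D libraries lay above all 3 WT libraries, with the lowest G12D value 1.37 times the highest WT value. The means were 1587 ± 321 in WT and 3569 ± 902 in G12D (SD, n = 3 each), a difference of 1.16 ± 0.25 (SE) in log2(normalized reads + 1). Behind these values were 1428, 2869 and 1945 WT reads and 3268, 2004 and 3285 G12D reads, so counting error was small beside the spread between libraries. In the authors' deposited table the log2 fold change of miR-205-5p was 1.08 ± 0.25.

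The separation of the genotypes in miR-205-5p depended on the scaling. As a share of all miRNA reads it made up 0.326%, 0.535% and 0.417% in WT and 0.967%, 0.516% and 0.758% in G12D. On this scale the groups overlapped, since WT library 2 (Wilson 95% interval 0.516% to 0.555%) stood above G12D library 2 (0.494% to 0.539%). With each library set to the same total the log2 difference was 0.79. The intervals cover counting error only.

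miR-1247-5p was a low-abundance miRNA that stood 7.64-fold higher in G12D. Its normalized read counts were 20.8, 38.8 and 12.0 in WT and 122, 135 and 291 in G12D. The groups did not overlap, and the lowest G12D library had 3.14 times the value of the highest WT library. The means were 23.9 ± 13.7 and 182 ± 94.0 (SD, n = 3 each), and the log2 difference of 2.92 ± 0.44 (SE) was the highest of the 254 miRNAs tested. In the authors' deposited table the log2 fold change of miR-1247-5p was 2.41 ± 0.37. The WT values rest on 22, 57 and 16 reads and the G12D values on 89, 101 and 268. As a share of reads the genotypes also stayed apart: the highest WT share was 0.0106% (Wilson 95% interval 0.00821% to 0.0138%) and the lowest G12D share 0.0260% (0.0214% to 0.0316%).

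**Figure D1:**
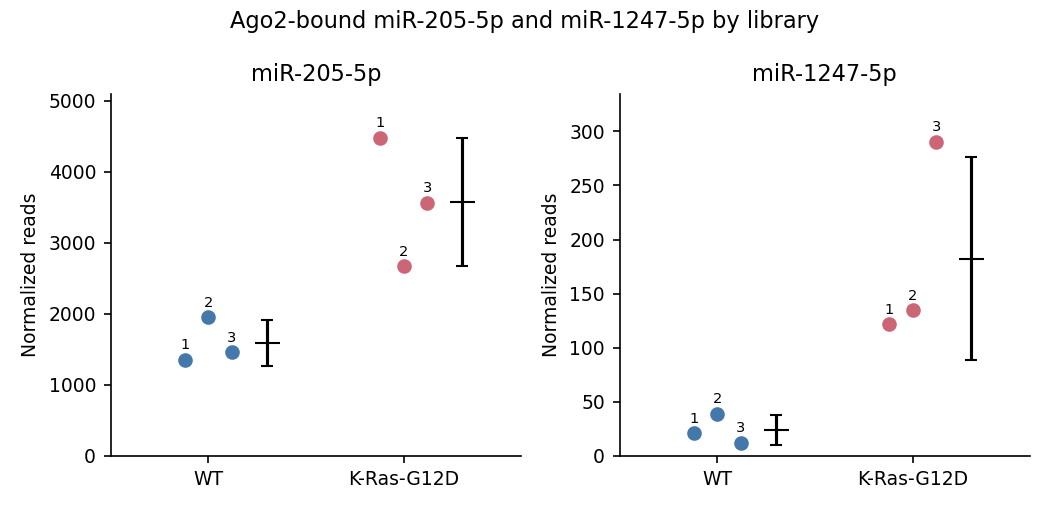
Normalized reads (linear y axis from 0) of miR-205-5p (left) and miR-1247-5p (right) in each WT and K-Ras-G12D library, numbered by replicate, with the mean and SD of each group as a bar beside the points. For both miRNAs the 3 G12D points lie above the 3 WT points, with the narrowest gap between WT library 2 at 1953 and G12D library 2 at 2670 for miR-205-5p.

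The members differed in spread as well as in level. Within WT the highest library exceeded the lowest by 1.44 times for miR-205-5p and by 3.24 times for miR-1247-5p. Within G12D these ratios were 1.68 and 2.38. WT library 2 was the highest WT library for both miRNAs. In G12D the highest library was number 1 for miR-205-5p and number 3 for miR-1247-5p. Over the whole table, 40 of 254 tested miRNAs passed the threshold of 0.05 for the adjusted p of limma with Benjamini-Hochberg adjustment (15.7%), 23 of them higher in G12D (9.06%), and 41 had all G12D libraries above all WT libraries (16.1%). The members were picked from such miRNAs, so nothing is read from their standing among them.

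By mean normalized reads, not corrected for any capture bias between miRNAs, miR-205-5p ranked 52 of 459 in WT and 36 in G12D. In WT it stood next to miR-141-5p (1663 ± 168) and miR-10a-5p (1585 ± 338), and in G12D next to miR-93-5p (3862 ± 344) and miR-181a-5p (3264 ± 672.9). miR-1247-5p moved from rank 210 in WT to rank 112 in G12D. Its WT neighbours were miR-540-5p (24.3 ± 10.6) and miR-434-3p (23.0 ± 16.6), both from the Dlk1-Dio3 region, and its G12D neighbours were miR-29c-3p (207 ± 92.3) and miR-218-5p (179 ± 35.8). In each of these 4 places the member and both neighbours differed by less than their SD.

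The profile most like that of miR-205-5p over the 6 libraries belonged to miR-140-3p. Likeness was the root mean square difference between log2 profiles, each centred on its own mean, and a smaller value is more alike. For miR-140-3p it was 0.12, against a median of 0.71 over the tested miRNAs. miR-140-3p, a miRNA best known from cartilage, had 698, 1003 and 773 normalized reads in WT and 1903, 1454 and 1888 in G12D. As in miR-205-5p, WT library 2 was the highest of its group and G12D library 2 the lowest. The next profiles were those of miR-700-5p (0.23), miR-27a-3p (0.23), miR-652-5p (0.23) and miR-210-3p (0.24), the last a miRNA known for its induction by hypoxia.

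No tested miRNA followed miR-1247-5p as closely. The smallest differences were those of miR-340-3p (0.71), miR-744-5p (0.86), miR-690 (0.92), miR-652-5p (0.99) and miR-700-5p (1.03), against a median of 1.59. The difference between the profiles of both members was 1.05. miR-340-3p had 12.3, 11.6 and 6.73 normalized reads in WT and 32.9, 39.97 and 41.2 in G12D, so its G12D libraries lay close together, whereas G12D library 3 of miR-1247-5p stood well above the other two. Likeness was measured on the contrast that chose the members and is a description only.

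**Figure D2:**
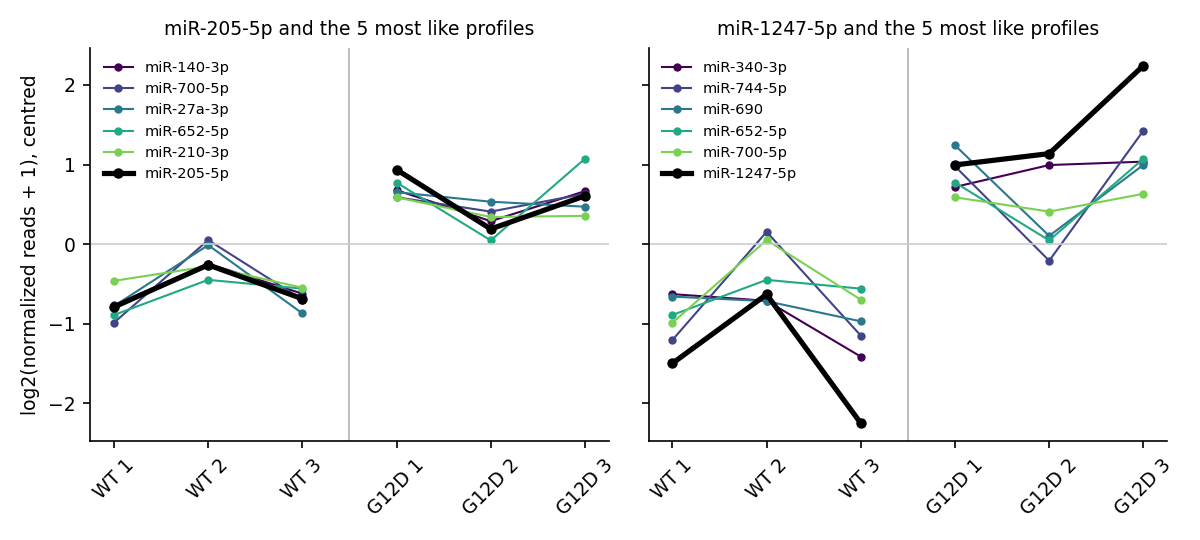
Profiles of log2(normalized reads + 1), centred on the mean of the 6 libraries (y axis), for miR-205-5p (left) and miR-1247-5p (right) as thick black lines, each with its 5 most like tested miRNAs in colour. The lines join libraries of 1 genotype only to show which belong to a miRNA. miR-140-3p runs closest to miR-205-5p (0.12), and the profiles on the right lie farther from miR-1247-5p (0.71 to 1.03).

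The rest of the Dlk1-Dio3 region did not share the higher level of miR-1247-5p in G12D. A list of 43 other miRNAs of the region, from Meg3 to Mirg on chromosome 12 and 530 to 706 kb from Mir1247, held 15 that were tested. None of the 15 passed as higher and 3 passed as lower by limma (adjusted p under 0.05 over all tested miRNAs), against 9.06% higher and 6.69% lower over the whole table. The log2 difference was below 0 in 12 of 15, with a median of -0.39 against 0.11 over all tested miRNAs. The summed normalized reads of the 43 were 606, 1005 and 663 in WT and 378, 574 and 494.5 in G12D. All G12D sums lay below all WT sums, while miR-1247-5p lay above.

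Of the 3 that fell, miR-673-5p, named after its values were seen, went from 16.1, 25.2 and 15.7 normalized reads in WT to 4.11, 5.33 and 5.42 in G12D (log2 difference -1.72, limma adjusted p = 0.00716). miR-127-3p, which is transcribed antisense to Rtl1, went from 56.9, 86.5 and 53.9 to 20.5, 10.7 and 31.4 (log2 difference -1.70, limma adjusted p = 0.00698). Without G12D library 2 its adjusted p was 0.0568. miR-136-5p went from 149, 180 and 87.5 to 28.8, 57.3 and 75.9 (log2 difference -1.39, limma adjusted p = 0.0185). Without G12D library 1 its adjusted p was 0.170, and with no variance trend 0.0605. In all 3 the G12D libraries lay below every WT library. miR-299a-3p (log2 difference 0.03) and miR-541-5p (0.63), the other abundant ones, did not pass. Whether Meg3, Rian, Mirg or Dio3os RNA changed was not tested.

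**Figure D3:**
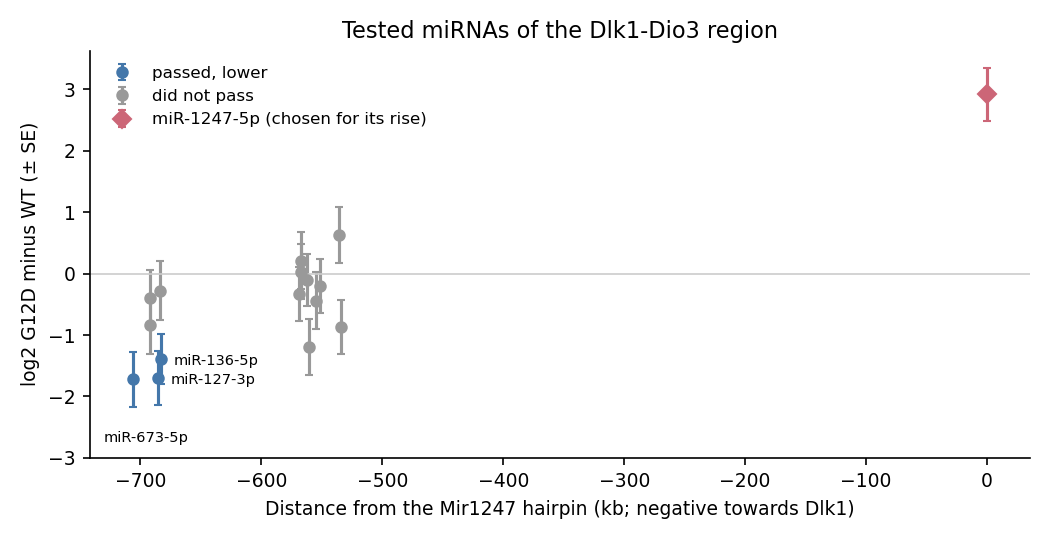
Log2 difference between G12D and WT with its SE (y axis) for the tested miRNAs of the Dlk1-Dio3 region against their distance from the Mir1247 hairpin in kb (x axis). miR-1247-5p, chosen for its rise, stands alone at 2.92, and the nearest other tested miRNA lies 534 kb away; the 3 that passed as lower are in blue.

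A list of squamous miRNAs, drawn up because miR-205 is abundant in stratified epithelium, named 7 others, of which 3 were tested. Of the 3, 0 passed as higher and 1 as lower, against 9.06% and 6.69% over all tested miRNAs, too few members to read a difference from. miR-203-3p, known for its role in skin differentiation, had 2845, 1865 and 2738 normalized reads in WT and 2678, 3427 and 2192 in G12D. The groups overlapped, with a log2 difference of 0.16 that did not pass. miR-224-5p passed as lower (log2 difference -1.03, limma adjusted p = 0.0199), from 720, 455 and 678 to 316, 344 and 240. That call was lost without WT library 1 (adjusted p = 0.0768), WT library 3 (0.0949) or G12D library 3 (0.122), and with no variance trend (0.0605). miR-31-5p (log2 difference -0.50) did not pass.

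In the miR-200 family, which shares Zeb1 and Zeb2 as targets with miR-205, 1 of 5 tested members passed as higher and 0 as lower, against 9.06% and 6.69% over all tested miRNAs. This was miR-200b-3p (log2 difference 0.56, limma adjusted p = 0.0364), which lost the call with each library set to the same total (log2 difference 0.20, adjusted p = 0.409). The median of the 5 was 0.36, against 0.11 over all tested miRNAs. Leaving out WT library 2 or 3 or G12D library 2 or 3 also ended the miR-200b-3p call (adjusted p 0.104 to 0.152). By limma it was also lost under quantile normalization (log2 difference 0.08, adjusted p = 0.834), with no variance trend (0.285) and with no filter (0.0963). Neither edgeR (adjusted p = 0.241) nor DESeq2 (0.264) called it.

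The first 6 bases of miR-1247-5p occur 1 base further in in the miR-99 and miR-100 miRNAs, printed with the shared bases in capitals.
miR-1247-5p: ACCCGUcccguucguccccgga
miR-99a-5p: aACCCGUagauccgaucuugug
miR-99b-5p: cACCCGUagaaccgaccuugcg
miR-100-5p: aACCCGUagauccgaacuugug
These miRNAs went the other way. miR-99b-5p had 158, 72.8 and 69.6 normalized reads in WT and 34.2, 30.6 and 13.0 in G12D (log2 difference -1.91, limma adjusted p = 0.00248). miR-99a-5p had 66.3, 59.2 and 68.1 in WT and 28.8, 22.7 and 21.7 in G12D (log2 difference -1.38, limma adjusted p = 0.0192), a call lost without WT library 3 (adjusted p = 0.0949), G12D library 2 (0.0526) or G12D library 3 (0.0945). In both, the G12D libraries lay below every WT library. miR-100-5p was at a mean of 2.33 in WT and 0.456 in G12D, too low to be tested. All 3 were looked up for the shared letters after their values could be seen, and they share no seed of bases 2 to 8 with miR-1247-5p.

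The RNA side of Ago2 binding could be read for miR-205-5p only. Of the 28 peaks with a miR-205-5p site, 6 held the 8mer and 22 the 7mer-m8, in 28 genes. The family ranked 42 (tied) of 75 by its number of peaks. A further 50 peaks had as their longest match a 7mer-A1 (UGAAGGA) and 84 a 6mer (UGAAGG). In 19 of the 28 miR-205-5p was the sole family with a site, and 9 held a site of another family too. The peaks were 41 to 111 bases wide, with a median of 56, the same as for all peaks. By the authors' annotation 13 of 28 lay in a 3' UTR (46.4%, against 54.7% of all annotated peaks), 12 in another exon (42.9% against 31.4%) and 2 in an intron. No genome was used here, so the bases around the sites are not shown.

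Peaks with a miR-205-5p site went both ways, and 16 did not pass the test. Of the 28, 26 had enough reads to be tested, and limma with Benjamini-Hochberg adjustment over all tested peaks called 10, with 6 higher and 4 lower in G12D. That is 38.5%, against 48.9% of all 4438 tested peaks. Higher calls made up 23.1% of the site peaks, against 36.2% of all, and lower calls 15.4%, against 12.7%. The median log2 difference was 0.40, against 1.05 over all tested peaks and 1.08 over annotated peaks with no miR-205 match. Of the 60 families with at least 10 tested peaks the median of miR-205-5p was the sixth lowest. Peaks with a 7mer-A1 had 11 higher and 8 lower of 42, with a median of 0.65. Those with a 6mer had 24 higher and 10 lower of 73, with a median of 0.93. Both medians lay between that of the site peaks and that of all tested peaks.

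These counts followed the genotype list in which the authors had called a peak. The 4 lower calls were among the 6 site peaks listed in WT only, and 5 of the 6 higher calls among the 14 tested site peaks listed in G12D only. Over all peaks of these lists 74.3% were called lower in the WT-only list and 47% higher in the G12D-only list, so a direction is in part fixed by the list. Of the 6 site peaks listed in both genotypes 1 was called higher (Tspan1) and 0 lower, with a median of 0.22. Over all 828 tested peaks listed in both, 39.5% were called, 13.9% higher and 25.6% lower, with a median of -0.45. The scaling also moved the median: under quantile normalization that of the 26 site peaks was -0.28 and that of all tested peaks 0.16.

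**Figure D4:**
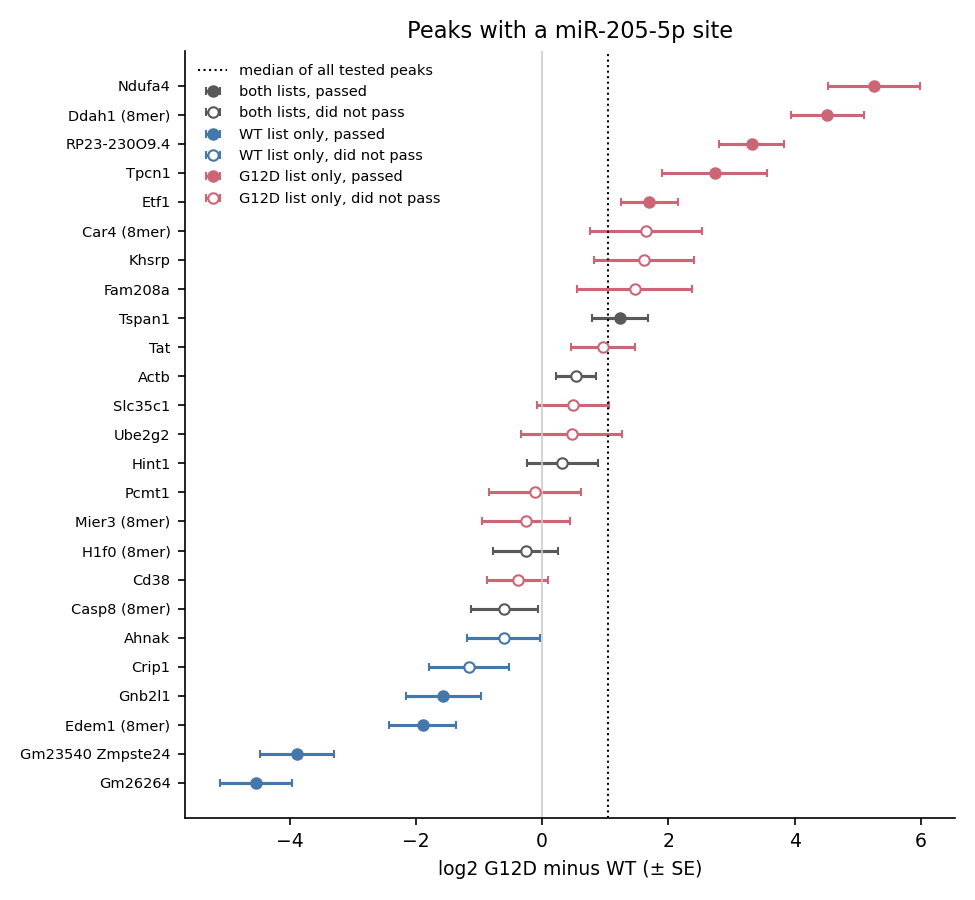
Log2 difference between G12D and WT with its SE (x axis) for 25 of the 26 tested peaks with a miR-205-5p site, by gene, coloured by the genotype list the peak was called in and filled where the test passed. The dotted line marks the median of all tested peaks at 1.05. The filled points lie at both ends, with 6 higher and 4 lower.

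Among the site peaks with the highest reads, Actb and Casp8 did not pass. The peak in the 3' UTR of Actb, beta-actin (chr5:142903166-142903230), had 180, 194 and 219 normalized reads in WT and 237, 277 and 358 in G12D. All G12D libraries lay above WT, but the log2 difference of 0.54 ± 0.32 (SE) did not pass (limma adjusted p = 0.184). Under quantile normalization it was 1.00 and passed (adjusted p = 0.00688). The 8mer peak in an exon of Casp8, an initiator caspase of apoptosis (chr1:58833725-58833778), had 27.6, 29.0 and 96.7 in WT and 22.9, 43.9 and 21.5 in G12D. Its groups overlapped, and the log2 difference of -0.60 did not pass (limma adjusted p = 0.353). In edgeR it was -1.33 and passed (adjusted p = 0.0193). The Casp8 peak also holds a site of miR-27-3p. The Cd38 peak (-0.39) and the Ahnak peak (-0.61) did not pass either.

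By log2(normalized reads + 1), the site peak that differed most was in the 3' UTR of Ndufa4 (chr6:11900454-11900514). Ndufa4 is a subunit associated with cytochrome c oxidase of the respiratory chain. The peak had 8.49, 5.80 and 0 normalized reads in WT and 133, 226 and 118 in G12D (log2 difference 5.26 ± 0.72, limma adjusted p = 0.000304). The WT values are 6 reads in all, against 1381 in G12D. In the authors' deposited table the log2 fold changes of the Gm26264 (-7.78), Gm23540 (-7.17) and Ddah1 (5.91) site peaks were larger than that of Ndufa4 (5.29). The Ndufa4 peak was listed in G12D only and also holds a site of miR-147-3p. The other tested Ndufa4 peak did not follow, with a log2 difference of -0.06.

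Higher in G12D were also 3' UTR peaks of Tspan1, listed in both genotypes, and of RP23-230O9.4 and Etf1, listed in G12D only. Tspan1, a tetraspanin of epithelial cells (chr4:116162694-116162749), had 38.2, 14.5 and 19.3 normalized reads in WT and 48.0, 74.3 and 43.1 in G12D (log2 difference 1.24 ± 0.45, limma adjusted p = 0.0370). That call was lost without any 1 of 5 libraries, all but WT library 1 (adjusted p 0.0695 to 0.152), and in edgeR (0.242) and DESeq2 (0.164). RP23-230O9.4, a gene known by its clone name (chr15:74878530-74878570), went from 4.25, 2.90 and 11.6 to 48.0, 72.2 and 70.4 (log2 difference 3.32 ± 0.52, limma adjusted p = 0.000539). Other peaks of its gene went the same way. Of the 15 other tested peaks of RP23-230O9.4, 12 were called higher (median 2.58), against 36.2% of all tested peaks (median 1.05). Etf1, the release factor that ends translation, went from 10.6, 11.6 and 23.2 to 37.1, 44.2 and 69.7 (log2 difference 1.70 ± 0.45, limma adjusted p = 0.00935). Without G12D library 3 its adjusted p was 0.0619, and in edgeR 0.0671.

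In 2 further higher site peaks, both listed in G12D only, the WT side had 3 reads or none. The 8mer peak in an intron of Ddah1, an enzyme that breaks down asymmetric dimethylarginine (chr3:145764392-145764440), had 0 reads in all 3 WT libraries and 27.3, 20.01 and 19.4 normalized reads in G12D, from 149 reads. Against a floor of 3 reads over the WT group it was at least 11.0-fold higher, and limma gave an adjusted p of 0.000269. The 2 other tested Ddah1 peaks had a median log2 difference of -0.64. The exon peak of Tpcn1, a cation channel of endolysosomes (chr5:120544428-120544487), had 0, 0 and 3.87 in WT and 3.27, 20.8 and 14.4 in G12D (3 against 124 reads, a ratio of 9.19 with a counting interval of 3.07 to 45.2). It passed (limma adjusted p = 0.0176) although the groups overlapped. The call was lost without WT library 1 (adjusted p = 0.0598), G12D library 2 (0.0830) or G12D library 3 (0.0786), in DESeq2 (0.0606) and under quantile normalization (0.248).

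The 4 lower site peaks were all in exons and all listed in WT only. Edem1, a factor that sends misfolded glycoproteins to degradation (8mer, chr6:108848705-108848751), went from 19.1, 34.8 and 61.9 normalized reads in WT to 7.63, 6.40 and 12.9 in G12D (log2 difference -1.89 ± 0.53, limma adjusted p = 0.0124). Without WT library 3 (adjusted p = 0.0545) or G12D library 2 (0.0604) it no longer passed. Gnb2l1, the ribosomal scaffold also called Rack1 (chr11:48804174-48804235), went from 25.5, 11.6 and 15.5 to 3.27, 8.25 and 4.31 (log2 difference -1.57 ± 0.59, limma adjusted p = 0.0457). That call was lost without any 1 of 5 libraries, all but WT library 2 (adjusted p 0.0638 to 0.133).

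The remaining lower site peaks lie in small nuclear RNA genes by RefSeq, a gene class with many near-identical copies, so their reads may belong to another copy. Gm26264 (chr6:81638318-81638371) had 21.2, 23.2 and 21.9 normalized reads in WT, from 35 reads, and 0 in every G12D library, at least 52.4-fold lower against a floor of 3 reads over the group (limma adjusted p = 0.000258). The peak labelled Gm23540 and Zmpste24 (chr4:121084094-121084144) had 8.49, 23.2 and 12.9 in WT, from 22 reads, and 0 in G12D, at least 33.0-fold lower (limma adjusted p = 0.000453). Without these 2 peaks the count was 6 higher and 2 lower, with a median of 0.48.

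Other peaks of the same gene give the background a site peak moved against. For the 18 tested site peaks whose gene had another tested peak, 11 lay above the median of these others and 7 below. The median gap was 0.27 in log2 difference, and the gaps ran from -2.21 in Hint1 to 5.32 in Ndufa4. Ndufa4 and Ddah1 rose while the other peaks of their gene did not pass, and the Edem1 site peak fell while both other Edem1 peaks (median -0.32) did not pass; the difference between peaks of a gene was not tested.

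**Figure D5:**
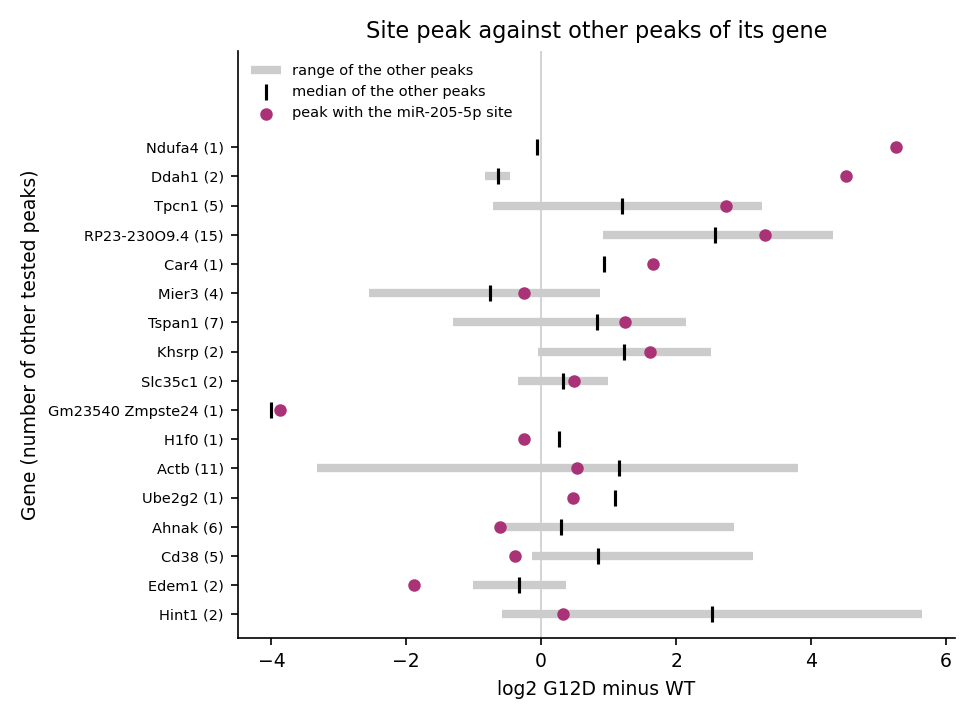
Log2 difference between G12D and WT (x axis) of 17 of the 18 miR-205-5p site peaks (purple points) beside the median (black tick) and range (grey bar) of the other tested peaks of the same gene, whose number stands in brackets. Points lie on both sides of the ticks, 10 above and 7 below, with the widest gap in Ndufa4.

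Summed over the 28 peaks, Ago2-bound reads at miR-205-5p sites were 732, 658 and 775 normalized reads in WT and 880, 1135 and 1077 in G12D. The groups did not overlap, and the means were 722 ± 59.1 and 1031 ± 133 (SD, n = 3 each), a ratio of 1.43 beside the 2.25 of the miRNA itself. Without the Ndufa4 peak they were 717 ± 61.5 and 872 ± 111. The Actb peak, which did not pass, had means of 198 in WT and 291 in G12D, and that of RP23-230O9.4 6.25 and 63.5. The 3 site peaks of highest mean made up 38.3% to 61.0% of the sum in a library. Of the 26 tested site peaks 6 passed as higher and 4 as lower, so the sum does not show a rise across the sites. As a share of the reads in merged peaks the sites made up 0.342%, 0.417% and 0.404% in WT and 0.542%, 0.760% and 0.606% in G12D. A sum over peaks called by genotype moves with how much was called in each, and 16 of the 28 peaks were listed in G12D only against 6 in WT only.

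By the authors' deposited table, 7 of the 28 site peaks had an adjusted p under 0.05 as higher and 5 as lower, against 2088 higher and 638 lower of 5504 peaks with an adjusted p.

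Genes known from the literature as targets were mostly not bound at a miR-205-5p site. Of 23 listed miR-205 targets 11 had a peak, and Zeb1 and Zeb2 had none. Of their 27 tested peaks 5 passed as higher and 7 as lower, against 36.2% higher and 12.7% lower over all tested peaks. Their median was 0.57 against 1.05. None of the peaks held a 7mer-m8 or 8mer of miR-205-5p, and 2 held any listed match. Src, a tyrosine kinase, had a 3' UTR peak of 299.3, 235 and 241 normalized reads in WT and 124, 117 and 143 in G12D (log2 difference -1.002, limma adjusted p = 0.0200). Its call was lost without WT library 1 (adjusted p = 0.0593), G12D library 1 (0.0543) or G12D library 2 (0.0624), under quantile normalization (0.101) and with no variance trend (0.0901). Ezr, which links the cortex of actin to the membrane of microvilli, had an exon peak of 106, 69.6 and 112 in WT and 13.1, 7.84 and 9.34 in G12D (log2 difference -3.13, limma adjusted p = 0.000271). This peak was listed in WT only, which in part fixes its direction. The most abundant Ezr peak (-0.50) and Phlpp2 peak (0.91) did not pass, but that Ezr peak passed as lower in edgeR (-1.07, adjusted p = 0.0203) and DESeq2 (-0.86, adjusted p = 0.0317).

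Of 10 listed miR-1247 targets only Map3k9 and Myh9 had a peak, while Sox9 and Nrp1 had none. Of their 10 tested peaks 2 passed as higher and 3 as lower, with a median of 0.55, against 36.2%, 12.7% and a median of 1.05 over all tested peaks. Map3k9, a kinase upstream of the JNK pathway, had a 3' UTR peak of 170, 197 and 415 normalized reads in WT and 32.7, 22.3 and 38.1 in G12D (log2 difference -2.95, limma adjusted p = 0.000304). All G12D libraries lay below all WT libraries. Myh9, nonmuscle myosin heavy chain, had an exon peak that passed as lower (-2.21, limma adjusted p = 0.00404) and a 3' UTR peak that passed as higher (3.22, limma adjusted p = 0.00902, but 0.0513 to 0.0696 without any 1 G12D library). The Map3k9 peak holds annotated sites of the families miR-130-3p/301-3p, miR-148-3p/152-3p and miR-17-5p/20-5p/93-5p/106-5p. The lower Myh9 peak, listed in WT only, holds a site of miR-22-3p. The higher Myh9 peak was listed in G12D only, so the direction of both is in part fixed by the list. Since no family of miR-1247 was annotated, whether the Map3k9 and Myh9 peaks hold its site GGACGGG was not tested.

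The labelled tissue was checked against marker genes. Peaks were found in 17 of 18 colonic epithelium genes, among them Epcam, Krt20 and Slc26a3, and in 0 of 9 stroma and muscle genes and 0 of 5 blood cell genes. Of 16 squamous epithelium genes 3 had a peak, Sprr1a, Sfn and Perp. The defining squamous genes Trp63, Krt5 and Krt14 had none. The summed normalized reads of the squamous peaks were 135.9, 55.1 and 244 in WT and 273, 321 and 270 in G12D, without overlap. The sums of the colonic epithelium peaks were 13207, 12283 and 12670 in WT and 10153, 11442 and 12456 in G12D, with overlapping groups. Of these reads 1 Lypd8 peak held 6413, 6996 and 4601 in WT and 664, 388 and 577 in G12D. The WT sums rest in large part on that peak, so their overlap with G12D does not show how the other colonic peaks moved. Of the 12 tested squamous peaks 7 passed as higher and 0 as lower (median 2.39), and of 106 colonic epithelium peaks 53 and 10 (median 1.63). Over all tested peaks 36.2% passed as higher and 12.7% as lower (median 1.05). The most abundant squamous peak, in Perp, did not pass (log2 difference -0.53, limma adjusted p = 0.413). In edgeR it passed as lower (-1.44, adjusted p = 0.0127). The next by reads, in Perp (2.21) and Sprr1a (2.59), passed as higher but were listed in G12D only. In that list 47% of tested peaks were called higher, so their direction is in part fixed by the list. The part of cell composition in the miR-205-5p difference was not tested, and in bulk tissue fewer cells of a type and less RNA per cell cannot be told apart.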

How the data were processed

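The authors deposited, for 6 miRNA and 6 pulldown mRNA libraries, normalized reads per mature miRNA and per merged peak, a signal of reads divided by 1 factor per library. STAR 2.5.2b, DESeq2, mm10 and GRCm38 are named in the submitters' processing notes; how peaks were called and reads counted is not given in the sources used here. Divided by 1 step per library, 100.0% of values above 0 gave whole reads (tolerance 0.01 read). The deposited tables of differences hold the authors' log2 fold changes and adjusted p-values, and the deposited peak lists carry the authors' score per peak, which served here to rank peaks inside a list, per the file headers. Peak classes, gene labels and seed sites (8mer and 7mer-m8, both covering bases 2 to 8) are the authors'. Peak columns, named by genotype code and number, were read as pulldown mRNA libraries. Sequences came from RefSeq tables of GRCm38.p6.

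The whole table was fitted with limma 3.58.1 (R 4.3.3) on log2(normalized reads + 1), G12D against WT, with a variance trend, Benjamini-Hochberg adjustment and a threshold of 0.05. Fold changes on this scale understate the change of low values. Features needed a mean of at least 10 (miRNAs, 254 of 459) or 5 (peaks, 4438 of 5554) normalized reads over the 6 libraries. On recovered reads edgeR 4.0.16 (quasi-likelihood, TMM) called 37 miRNAs and 1987 peaks and DESeq2 1.42.0 called 34 and 1901. Fits were tested on simulated data. Where a group had 0 reads, 3 reads over the group stood in as a floor. Reads were pooled over the libraries of a group, so such a fold weighs the deepest libraries most. It leaves out the counting error of the other group.

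Both members, the lists and the tests were chosen with earlier results of these data known. The text names the members, the other arms, the 5 most like miRNAs and neighbours in rank. From the lists it gives values for some of the 4 most abundant of each. Of the site peaks it names the 10 of highest mean and at most 5 called with the largest change in each direction. miR-673-5p and the miR-99 and miR-100 miRNAs were added after their values were seen. Alternatives covered the pseudocount, filter, scaling, replicate block, variance trend, each library left out, and the definition of a site. Of the site peaks, 1 that the rule names is not reported here; the counts include it.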

Additional observations from a re-analysis of the deposited data

How the results depend on the processing

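The log2 difference of miR-205-5p moved by more than its SE of 0.25 only with each library set to the same total (0.79). Under quantile normalization and in edgeR it was 0.96. With 1 library left out it ran from 0.98 to 1.35, and that of miR-1247-5p from 2.52 to 3.33 (2.56 to 2.99 under the other 10 alternatives). The count of miRNAs passing, 40, became 24 with a mean of at least 50, 18 with no variance trend, and 20 (without WT library 3) to 56 with 1 library left out. Its split of 23 higher and 17 lower became 6 and 31 with the same total per library, 11 and 26 in edgeR and 13 and 21 in DESeq2. The count of peaks, 2170, became 790 with a mean of at least 20 and 1410 (without G12D library 2) to 2275 with 1 library left out; its 1607 higher and 563 lower became 873 and 802 under quantile normalization, 1093 and 894 in edgeR and 1130 and 771 in DESeq2. The 10 site peaks became 5 with a mean of at least 20, 2 for the 8mer alone, 1 for peaks in both lists (also under the stricter overlap), 6 at or above the median score, 29 of 68 with 7mer-A1 sites added (chosen after seeing the data), and 6 (without G12D library 2 or 3) to 10 with 1 library left out. The split of 6 higher and 4 lower was 4 and 6 in edgeR and 4 and 5 in DESeq2.

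Replicate numbers did not pair the libraries: the correlations of same-numbered deviations ran from -0.42 to -0.00031 for miRNAs and from -0.036 to 0.041 for peaks. With the number as a replicate block 25 miRNAs, 2220 peaks and 9 site peaks passed, and the log2 differences of the members stayed at 1.16 and 2.92. With the block the calls of miR-136-5p (adjusted p = 0.0518), miR-224-5p (0.0904), miR-200b-3p (0.0557) and the Gnb2l1 peak (0.0668), all by limma, were lost. The log2 differences of both members stayed above 0 under every alternative run. The median of the site peaks, 0.40, fell below 0 under quantile normalization (-0.28), in edgeR (-0.25) and in DESeq2 (-0.04), and for the 8mer alone (-0.25). The median of all tested miRNAs, 0.11, fell below 0 with the same total per library (-0.26), with no filter (-0.10) and in edgeR (-0.13).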

Other observations

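The members rest on unequal depth: miR-1247-5p has 16 to 57 reads per WT library, miR-205-5p at least 1428 in any library. Reads in the pulldown mRNA libraries differ more than in the miRNA libraries, and a WT library had 1294 to 1854 of the 5554 merged peaks at 0, against 106 to 177 in G12D. At like depth, WT library 3 (148770 reads in merged peaks) had 1327 peaks at 0 and G12D library 1 (148927 reads) had 177. Of the merged peaks 4275 were listed in G12D only and 445 in WT only. A low site peak in WT rests on few reads.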
